A study of Saccharomyces cerevisiae with 2 samples.

Results

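The genes described here encode 3 small groups of yeast cell wall proteins. ECM33, PST1, SPS2 and SPS22 resemble each other. CCW12 and CCW14 are grouped by their name, as covalently linked wall proteins. DFG5 and DCW1 encode putative glycosidases. These 8 genes were chosen by name from the 6207 open reading frames (ORFs) of the deposited table. Earlier results of these data were known when they were chosen. They are ECM33 (YBR078W), PST1 (YDR055W), SPS2 (YDR522C), SPS22 (YCL048W), CCW12 (YLR110C), CCW14 (YLR390W-A), DFG5 (YMR238W) and DCW1 (YKL046C). For 7 of them the ORF name in the table was the current one. CCW14 was found under YLR391W, which the RefSeq gene table lists as a synonym of the present name.

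The yeast wall is a mesh of glucan and a little chitin, covered by mannoproteins. Many of these mannoproteins are made with a glycosylphosphatidylinositol (GPI) anchor, which first holds them in the plasma membrane and is then cut so that the protein can be joined to glucan. When the wall is weakened, sensors such as Wsc1 signal through the kinase Slt2 to the transcription factor Rlm1, and genes for wall proteins and wall-building enzymes are among the targets. ECM33 and PST1 are paralogs kept from the whole-genome duplication, and so are SPS2 and SPS22. Dfg5 and Dcw1 are thought to act in the transfer of GPI proteins from the membrane to the wall.

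RNA was compared on 2-colour DNA microarrays between caspofungin-treated and untreated *Saccharomyces cerevisiae* of background BY4741. Both RNAs of every comparison carried the same wsc1 mutation, so there was no wild-type arm, and the labels do not say what the mutation is. Cultures in YEPD at 24 °C were split, and one part received caspofungin, an echinocandin that inhibits glucan synthase, at 15 ng/ml for 2 h. The deposited table held 1 column for each of 2 replicates: the caspofungin RNA was labelled with Cy3 and the untreated RNA with Cy5 in replicate 1, and the other way round in replicate 2. The labels do not say whether these columns are separate cultures, so the p-values measure only the spread between 2 columns, which may be technical. The limma p-values and intervals use a variance drawn partly from all tested ORFs, so a small SD can go with a wide interval.

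Values are log2 dye ratios. The sign of replicate 1 was turned, so that the caspofungin RNA held the same place in both ratios. The sources used here do not state which dye is the numerator. With Cy5 as the numerator, a positive turned value is a higher RNA level in the treated cells, and with Cy3 it is a lower one. Sides are therefore called positive and negative, and no direction of change is given. The Pearson correlation of the deposited columns was -0.29 over 3117 ORFs with both values, which share arrays and are not independent. WSC1 itself was blank in both columns. In whole-cell RNA, fewer expressing cells and less RNA per cell cannot be told apart.

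Of the 5 genes with a value in both replicates, 4 lay on one side and 1 on the other. PST1 and CCW14 stood on the positive side with means of 0.57 and 0.47, and ECM33 and CCW12 lay on the same side with 0.30 and 0.15. DFG5 was alone on the negative side with -0.34. Of the remaining genes, DCW1 had a value in replicate 1 only, and SPS2 and SPS22 were blank in both columns. Of all ORFs in the table, a share of 50.2% had both values, 10.3% had 1 and 39.5% had none.

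All 5 genes kept the same sign in both replicates, 4 of them positive and 1 negative. The same held for 64.1% of the 3117 ORFs (31.6% positive and 32.4% negative). In limma, 0 of the 5 passed an adjusted p of 0.05, as did 0% of all ORFs. At an unadjusted p of 0.05, limma gave 3 of the 5 (PST1, CCW14 and DFG5), against 13.4% of all ORFs. The plain one-sample statistic gave 0 of the 5 by either p, against 8.47% of all ORFs unadjusted. With columns centred on their medians limma called 43 of the 3117 ORFs at an adjusted p of 0.05 (1.38%), with 0 of the 5 among them. The unadjusted limma count with centred columns was again 3 of the 5, against 12.5% of all ORFs, and under the opposite turning it was 0, against 3.02%. Values that keep their turned sign partly cancel under the opposite turning, so that 0 was largely set by construction. None of the 5 had a mean beyond 2-fold, as 0.962% of all ORFs did with the same sign in both columns. The median of the 5 means was 0.297, beside 0.010 over all ORFs with both values. In a test of signs over 2 columns no two-sided exact p can fall under 0.5.

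**Figure D1:**
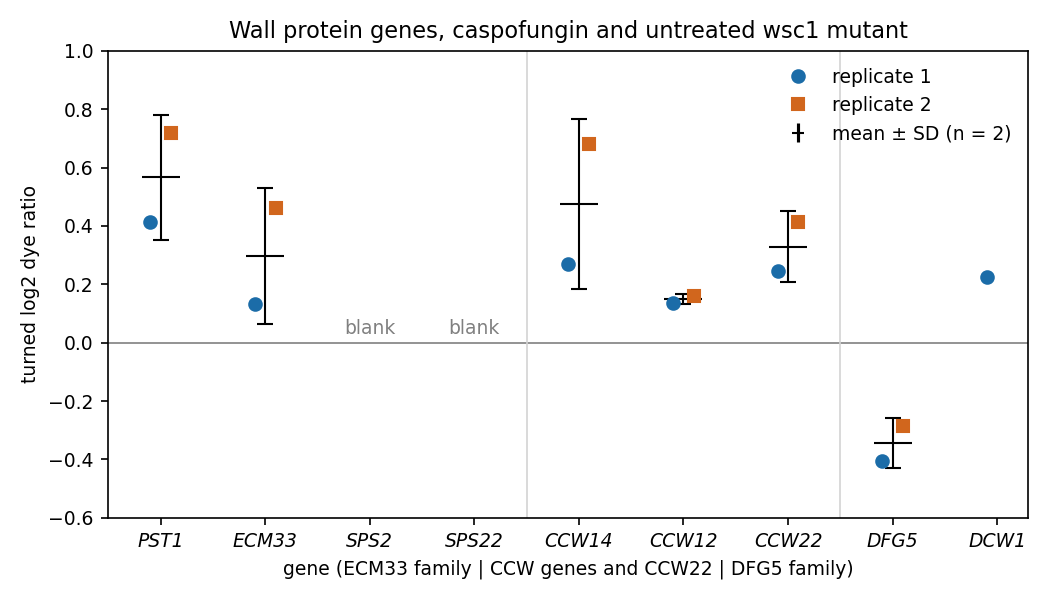
Turned log2 dye ratio (vertical axis) of each gene of the 3 groups and of CCW22 (horizontal axis). Replicate 1 is shown as circles, replicate 2 as squares and the mean ± SD as bars where both exist. PST1, ECM33, CCW14, CCW12 and CCW22 lie above 0 in both replicates, DFG5 lies below 0 in both, DCW1 has 1 point, and SPS2 and SPS22 are blank.

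In the ECM33 family, PST1 had the greatest ratio. PST1 encodes a GPI protein of the wall and is a known target of the Slt2 pathway. Its deposited values were -0.41 in replicate 1 and 0.72 in replicate 2, which gave turned values of 0.41 and 0.72. Both were high within their columns, at percentile 87.1 of the ORFs in replicate 1 and 99.1 in replicate 2. The mean was 0.57 ± 0.21 (SD, n = 2), a size of 1.48-fold, with a 95% interval of 0.20 to 0.94 and an adjusted p of 0.366 in limma. Ranked from the positive end, PST1 held place 30 of 3117.

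ECM33, the paralog of PST1, encodes a GPI protein needed for normal wall assembly and growth at the bud. After turning, replicate 1 gave 0.13 and replicate 2 gave 0.46. The 2 columns placed it differently, at percentile 58.7 in replicate 1, near the middle, and 95.2 in replicate 2. The mean was 0.30 ± 0.23 (SD, n = 2), or 1.23-fold, and its 95% interval of -0.09 to 0.68 spanned 0 (limma adjusted p = 0.400).

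The difference between the paralogs varied less than either gene. PST1 exceeded ECM33 by 0.28 in replicate 1 and by 0.26 in replicate 2. The mean difference was 0.27 ± 0.02 (SD, n = 2), or 1.20-fold, and the exact two-sided sign test gave p = 0.5, the smallest value it can give. A shift of a whole column cancels in such a difference, because both genes come from the same arrays. After turning, the column medians over ORFs with both values were 0.0355 in replicate 1 and -0.0425 in replicate 2. Both genes were higher in replicate 2, and why their difference varied less was not tested. Under the opposite turning, in which replicate 1 keeps its deposited sign, the difference was -0.013.

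SPS2 and SPS22 act in building the glucan layer of the spore wall and are transcribed mainly in the middle of sporulation. Both were blank in both columns, so their response and the difference between them were not measured. Blank entries were common among other sporulation genes too. Of 23 such genes on the table, 19 were blank in both columns, against 39.5% of all ORFs. Among the blanks was SPS1, a sporulation kinase gene that lies beside SPS2 on its chromosome. The 2 sporulation genes with both values were CRR1, a glycosidase-like gene of the spore wall, with 1.04 in replicate 1 and -0.15 in replicate 2, and SPO73, with -0.14 and -0.11.

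Of the CCW genes, CCW14 had the higher ratio. CCW14 encodes a GPI mannoprotein of the inner wall. After turning it had 0.27 in the first replicate and 0.68 in the second, at percentiles 75.7 and 98.7 of their columns, so it stood out more in replicate 2. The mean was 0.47 ± 0.29 (SD, n = 2), or 1.39-fold, with a 95% interval of 0.05 to 0.90 (limma adjusted p = 0.366). It held place 61 from the positive end. ECM19, the gene next to CCW14 on its chromosome, had similar values of 0.34 and 0.57, and it was singled out after its values were seen. Probe sequences were not used here, so it was not tested whether the spot named YLR391W detects CCW14 alone.

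CCW12, one of the most abundant mannoproteins of the wall, had the ratio nearest to 0 and the smallest spread of the 5. The turned ratio was 0.14 in replicate 1 and 0.16 in the second replicate. Both lay at percentiles 59.4 and 76.2, within the bulk of the table. The mean was 0.15 ± 0.02 (SD, n = 2), or 1.11-fold, and the 95% interval ran from -0.14 to 0.44 (limma adjusted p = 0.530).

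CCW14 exceeded CCW12 by 0.13 in replicate 1 and 0.52 in replicate 2. The mean difference was 0.33 ± 0.27 (SD, n = 2), and its size rested mostly on replicate 2. CCW22 (YDR134C), a close copy of CCW12 that RefSeq lists as a pseudogene, had 0.24 and 0.41 in replicates 1 and 2. Its mean was 0.33 ± 0.12 (SD, n = 2; limma adjusted p = 0.372). CCW12 lay below it by 0.11 and 0.25, a mean difference of -0.18 ± 0.10. RNA of one copy may bind the spot of the other, so the separate values of CCW12 and CCW22 are uncertain.

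DFG5 went the other way. DFG5 was found through a defect in filamentous growth, and loss of DFG5 together with DCW1 is lethal. In replicate 1 the turned ratio was -0.41, and in replicate 2 it was -0.28, at percentiles 6.64 and 18.1. The mean was -0.34 ± 0.09 (SD, n = 2), a size of 1.27-fold, with a 95% interval of -0.65 to -0.04 (limma adjusted p = 0.366). It held place 2855 of 3117 from the positive end. Its partner DCW1 had a turned value of 0.22 in replicate 1, at percentile 71.0, and was blank in replicate 2. In that single column DFG5 was 0.63 below DCW1, a difference with no replicate check.

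**Figure D2:**
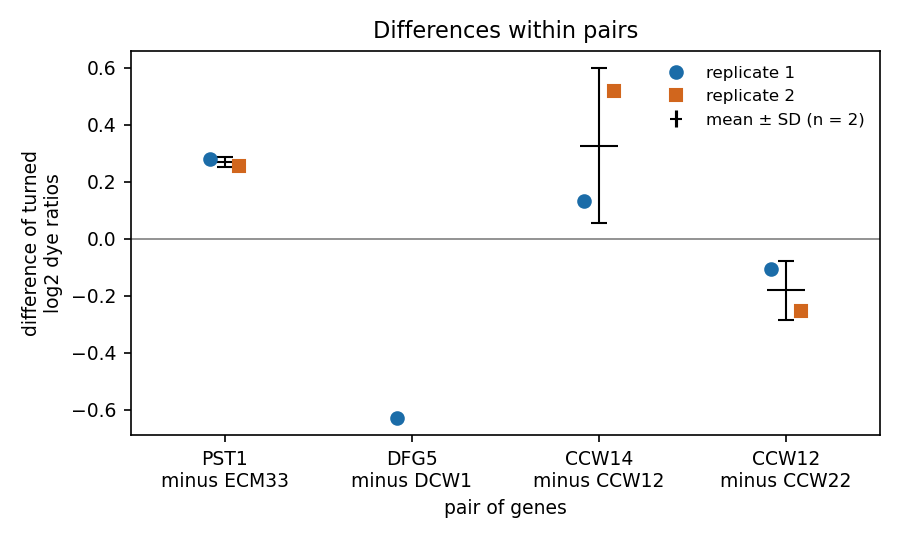
Difference of turned log2 dye ratios (vertical axis) within each pair of genes (horizontal axis), with replicate 1 as circles, replicate 2 as squares and the mean ± SD as bars. The values for PST1 minus ECM33 nearly coincide at 0.28 and 0.26, those for CCW14 minus CCW12 lie apart at 0.13 and 0.52, and DFG5 minus DCW1 has the single value -0.63.

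By mean, the order from the positive end was PST1, CCW14, ECM33, CCW12 and DFG5. PST1 lay above CCW14 by 0.09 ± 0.08 (SD, n = 2) and CCW14 above ECM33 by 0.18 ± 0.06. ECM33 and CCW12 did not differ beyond their spread, with a difference of 0.15 ± 0.21 and opposite order in the 2 replicates. CCW12 lay above DFG5 by 0.49 ± 0.07, the widest gap between neighbours in this order, with 0.54 in replicate 1 and 0.45 in replicate 2. From PST1 to DFG5 the distance was 0.91 ± 0.13.

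**Figure D3:**
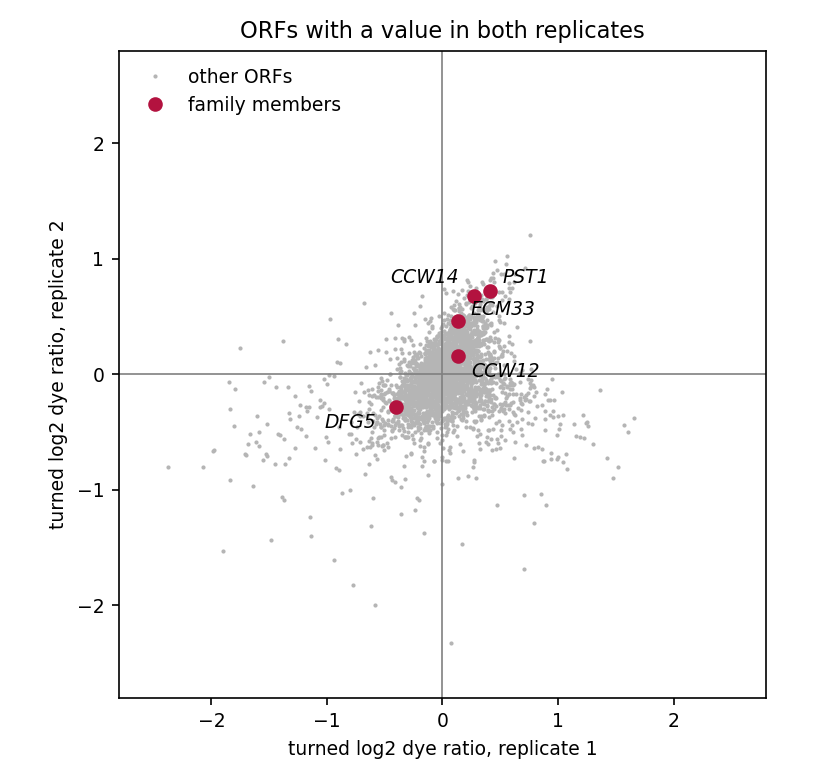
Turned log2 dye ratio in replicate 1 (horizontal axis) and replicate 2 (vertical axis) for the 3117 ORFs with both values. The 5 measured members (family members in the legend) are large points and all other ORFs are grey. PST1 and CCW14 lie at the upper edge of the cloud, at 0.72 and 0.68 in replicate 2, CCW12 lies within it, and DFG5 lies at lower left.

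Because the dyes were exchanged, a constant dye effect cancels in the turned means given above and remains in the SD. It stays in the mean of the deposited values, where opposite treatment ratios cancel instead. That mean was 0.21 for CCW14, 0.16 for ECM33, 0.15 for PST1, 0.06 for DFG5 and 0.01 for CCW12. For ECM33 and CCW14 it was about as large as the value of the weaker replicate, 0.13 and 0.27.

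The ORFs with values nearest to those of PST1, by Euclidean distance over the 2 turned values, were ZRT2, a zinc transporter gene (0.44 and 0.71), YIP4, which encodes a Golgi membrane protein (0.40 and 0.74), and YPQ1, a vacuolar amino acid transporter gene (0.43 and 0.67). Those nearest to DFG5 were MRPS18, of the mitochondrial ribosome (-0.41 and -0.28), PPN2, a polyphosphatase gene (-0.39 and -0.28), and YAR1, a chaperone gene for a ribosomal protein (-0.38 and -0.29). None of these 6 encodes a GPI wall protein.

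Other genes for GPI proteins and their relatives lay mostly on the same side as PST1 and CCW14. Of 43 on the table, 24 had both values, with 19 positive and 5 negative and a median of 0.20, beside 0.010 over all ORFs. The 3117 ORFs with both values held 1623 positive and 1494 negative. The 24 included CCW22, whose spot may also bind CCW12 RNA. This GPI list was chosen with earlier results of these data known, so its counts are only descriptive. For the 24, replicate 1 alone had a median of 0.13 and replicate 2 one of 0.29. Of them, 20 kept their sign (83.3%, against 64.1% of all ORFs). None of the 24 passed an adjusted p of 0.05 in limma. At an unadjusted p of 0.05, 3 were positive and 1 negative, against 5.61% and 7.76% of all ORFs, and CCW22 was among the 3.

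The GPI genes with the greatest means came from several families. FLO9, a flocculin gene, had 0.20 in replicate 1 and 0.61 in replicate 2 (mean 0.40 ± 0.29), and CWP2, a major wall mannoprotein gene, had 0.24 and 0.49 (0.36 ± 0.18). CRR1, given above, is on this list as a relative of the GPI proteins Crh1 and Utr2, and its mean of 0.44 ± 0.84 came from replicate 1. PLB1, a phospholipase gene, had -0.61 in both replicates, and was the most negative of the list.

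Other targets of the Slt2 and Rlm1 pathway were spread over both sides, like the table as a whole. Of 24 on the table, 15 had both values, 7 positive and 8 negative, with a median of -0.05. Over all ORFs with both values, 1623 were positive and 1494 negative. CRH1, CWP1 and NCW2, which were positive, and SED1, which was negative, are also on the GPI list, so the lists overlap. The list of pathway targets too was chosen with earlier results of these data known. Of the 15, 11 had matching signs in the 2 columns, a share of 73.3% beside 64.1% over the table. That median was -0.12 in replicate 1 and 0.19 in replicate 2. In limma 0 passed the adjusted p, and at an unadjusted p of 0.05 there was 1 positive and 0 negative, against 5.61% and 7.76% of all ORFs. The positive one was YNL058C, an ORF of unknown function, with 0.57 and 0.28 (0.42 ± 0.21). SVS1, a wall protein gene, had -0.53 and -0.13 (-0.33 ± 0.28). The remaining large means in this list were those of FKS1, the glucan synthase subunit, at 0.34 ± 0.59, and BGL2, a wall glucanosyltransferase gene, at 0.33 ± 0.34, both with an SD greater than the mean.

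**Figure D4:**
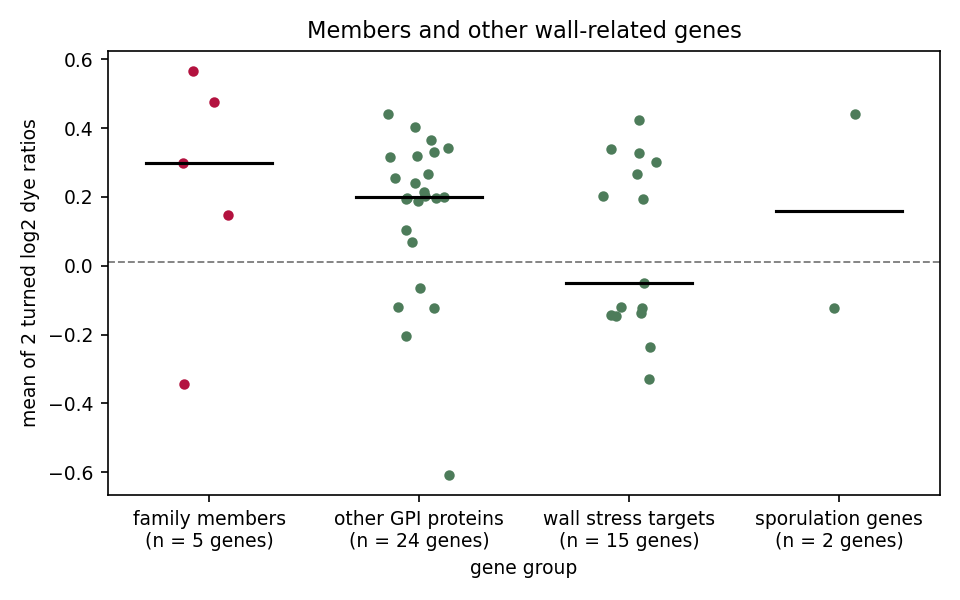
Mean of the 2 turned log2 dye ratios (vertical axis) of each gene with both values. The horizontal axis holds the 5 measured members, labelled family members, and 3 groups of other genes. The groups of other genes share some genes. Short lines are group medians and the dashed line is the median of all ORFs. Medians are 0.297 for the 5 members, 0.20 for 24 other GPI protein genes and -0.05 for 15 wall stress targets, and only 2 sporulation genes had both values.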

How the data were processed

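The authors deposited 1 log2 dye ratio per ORF and replicate; 2-colour hybridisation is per the labels. That the scale is log2 was read from the values: 2 raised to a value had no more than 4 decimals for 100% of values, within 0.001 of the last decimal. Background correction, normalization, averaging of arrays, centring and the rule for blanks are unknown (not given in the sources used here). Per the labels' protocols there were 4 arrays per condition. The deposited medians were -0.07 and -0.04. Spot intensities were not used. The number of arrays limits the precision.

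The 2 control entries were left out. Symbols came from RefSeq (assembly R64), matching 5654 ORFs by name and 23 by synonym. Version 3.58.1 of limma, run under R 4.3.3, tested all 3117 ORFs with both values for a mean other than 0 (lmFit with an intercept, eBayes, two-sided, Benjamini-Hochberg, threshold 0.05). The fit was also run on simulated independent normal values, drawn with the prior variance fitted to these data. Those values held no dye effect and no shift of a column, so that run cannot show how the fit behaves with either. Tried as alternatives were median-centred columns, the opposite turning, a robust prior, the plain statistic, ORFs with at least 1 value and each replicate alone. All 8 members are named, with the 4 largest means per list and the 3 nearest ORFs of the extreme members. Members and lists were chosen with earlier results of these data known. Of the GPI list, 43 of 44 genes were analysed, because GAS1 could not be matched to an ORF name. No sequences are shown.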

Additional observations from a re-analysis of the deposited data

How the results depend on the processing

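No member passed an adjusted p of 0.05 in limma under any of the 5 alternatives run (centred columns, opposite turning, robust prior, plain statistic, ORFs with at least 1 value). Over all ORFs the count of calls was 43 with centred columns (1.38%) and 0 as deposited and under the other 4; the limma prior had 10.6 degrees of freedom with centred columns and 2.64 as deposited, and the cause was not tested. Among the members, the lowest limma adjusted p with centred columns was 0.166, for PST1. The opposite turning reversed DFG5 (0.060) and PST1 minus ECM33 (-0.013) and moved CCW12 minus CCW22 to -0.073; these follow from its construction, since it keeps what repeats by dye. It also took the median of the members to 0.152. Each replicate alone gave 0.13 to 0.46 for ECM33, 0.41 to 0.72 for PST1, 0.27 to 0.68 for CCW14, 0.14 to 0.16 for CCW12, -0.41 to -0.28 for DFG5 and 0.14 to 0.46 for the median. Differences ran from 0.26 to 0.28 for PST1 minus ECM33, 0.13 to 0.52 for CCW14 minus CCW12 and -0.25 to -0.11 for CCW12 minus CCW22; with 1 replicate there was no test. No paired analysis was possible because both columns belong to 1 group and each ratio already holds both RNAs.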

Other observations

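The 2 control entries of the table kept the same sign in both columns as deposited. The entry named Arabidopsis had 0.29 in replicate 1 and 0.28 in replicate 2, and the entry named 3XSSC had -0.12 and -0.17. Turned like the genes, each control therefore had opposite signs in the replicates. The 5 measured wall protein genes had the same sign in both, as did 64.1% of the 3117 ORFs with both values. On the same measure, the means of the deposited values of the 5 genes ran from 0.01 for CCW12 to 0.21 for CCW14, below the Arabidopsis values. Against the 3XSSC values, compared by size, CCW14 was larger than both. ECM33 (0.16) and PST1 (0.15) lay between them, and DFG5 (0.06) and CCW12 were smaller. What the 2 control entries hold is not stated in the sources used here.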
